A study of Mus musculus with 18 samples.

Results

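The genes described here are 10 genes through which cells read mechanical load: the transcriptional coactivators Yap1 and Wwtr1 (the gene of TAZ), their DNA-binding partner Tead1, 4 genes long used as readouts of these coactivators (Ccn1, Ccn2, Ankrd1 and Amotl2), the transcription factor Srf, and the stretch-gated channel genes Piezo1 and Piezo2. They were chosen by name, with earlier results of these data known, and all 10 were found among the 27743 genes of the deposited table. Of these, 9 were above 1 FPKM (fragments scaled to gene length and library depth) in every library and entered the tests among 13078 genes. Piezo2 was above 1 FPKM in a single library and did not pass the filter on low values.

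The libraries came from RNA of mouse skin flaps, that is, areas of skin raised from their bed, sampled at day 7. In 5 groups, coded D15L100, D15L150, D15L200, D100L150 and D150L150, a mesh printed by near-field electrostatic printing lay beneath the flap, and the meshes differed in diameter and spacing. The sixth group, Control, had flaps that received nothing further once the flap had been made. Each group had 3 libraries, 18 in all. The labels do not define D or L or give their units, and the sources used here do not give strain, age, sex or the way the flap was raised. The labels do not say whether each library stands for its own animal, so the p-values measure the spread between these libraries, which may in part be technical.

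Library depth was even, between 28422344 and 35327357 recovered fragments, and 11778 to 12488 genes were at 1 FPKM or more. Skin markers were present in every library: 8 basal keratinocyte genes summed to 1283 to 7469 FPKM, and 12 skeletal muscle genes summed to 2252 to 19783 FPKM, so muscle RNA was in the samples too. Library Control 1 stood apart within its group, with a blood endothelial marker sum of 1109 FPKM against 176 to 494 FPKM elsewhere, and a basal keratinocyte sum of 1283 FPKM against 3160 to 7469 FPKM elsewhere. Across all genes tested, 466 were called between spacer flaps and Control flaps and 0 were called when Control 1 was left out. In bulk tissue, fewer cells of a type and less RNA per cell cannot be told apart.

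As background, YAP and TAZ shuttle between cytoplasm and nucleus. When cells spread, pull on a stiff matrix or lose neighbours, the Hippo kinases hold them back less, and they bind TEAD factors to switch on genes of growth and matrix remodelling. In skin, YAP acts in basal keratinocytes during growth and repair, and TAZ and YAP act in fibroblasts of healing wounds. SRF follows the actin cytoskeleton through its MRTF cofactors and growth factor signals through its ternary complex factor partners, and drives actin genes and immediate early genes. The PIEZO proteins are ion channels opened by membrane tension: Piezo1 is found in many cell types, and Piezo2 is known best from touch-sensing neurons and Merkel cells.

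The stretches of promoter that carry the letters bound by TEAD factors or SRF are shown because such letters are what these factors recognise. RefSeq windows of 250 bases before the transcription start (GRCm38.p6) were matched for 7 of the 10 genes, and Tead1, Ccn2 and Piezo2 are named only. The TEAD core letters GGAATG, read on both strands, were found in 5 of the 7 windows, against 12.6% of the 32851 windows of all genes. The CArG box bound by SRF, read on both strands, was found in 1 of the 7 windows, that of Srf itself, against 1.47% of all windows. A match is a description of the letters and shows neither binding nor control. The lines give 30 bases each, 5′ to 3′ on the gene's strand, with the motif in capitals, and CATTCC is the TEAD core read on the opposite strand.
Amotl2, chr9:102717727-102717756, plus strand: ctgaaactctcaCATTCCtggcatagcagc
Ccn1, chr3:145650071-145650100, minus strand: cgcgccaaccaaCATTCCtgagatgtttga
Ankrd1 distal site, chr19:36120037-36120066, minus strand: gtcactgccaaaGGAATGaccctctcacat
Ankrd1 proximal site, chr19:36119950-36119979, minus strand: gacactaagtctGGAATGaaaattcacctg
Yap1, chr9:8004720-8004749, minus strand: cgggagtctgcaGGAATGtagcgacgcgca
Wwtr1, chr3:57576029-57576058, minus strand: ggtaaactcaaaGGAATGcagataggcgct
Srf, chr17:46556215-46556244, minus strand: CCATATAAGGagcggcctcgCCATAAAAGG
The core lay 65 to 60 bases before the start in Amotl2, 103 to 98 in Ccn1, and 210 to 205 and 123 to 118 in Ankrd1. The Srf window held 2 CArG boxes, between 82 and 53 bases before its start. The Amotl2 and Ankrd1 stretches also overlap an exon annotated for the same gene in GENCODE on this build.

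Among the 9 genes tested, Amotl2 was the one that differed between flaps over a spacer and Control flaps. Amotl2 encodes angiomotin-like 2, a junction protein that holds YAP in the cytoplasm and whose gene is itself switched on by YAP, and it lies at chr9:102716672-102733418 on the plus strand. Its level averaged 17.6 ± 3.01 FPKM in the spacer libraries (SD, n = 15) and 11.0 ± 2.86 FPKM in the Control libraries (SD, n = 3). The log2 difference was 0.65 ± 0.13 (SE, 95% interval 0.37 to 0.93), with adjusted p = 0.0188 by limma on log2(FPKM + 1) with Benjamini-Hochberg adjustment over 13078 genes. That made 1 of 9 members called, in the direction of higher, where 3.56% of all genes were called, 2.84% higher and 0.726% lower. At an unadjusted p under 0.05 it was 3 of 9 members (Amotl2, Tead1 and Wwtr1), against 22.4% of all genes.

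Library by library, Amotl2 was at 14.0, 19.8 and 14.7 FPKM in D15L100, 20.8, 15.7 and 20.5 FPKM in D15L150, and 16.6, 16.8 and 13.5 FPKM in D15L200. It was at 16.3, 16.0 and 14.9 FPKM in D100L150 and at 21.2, 22.9 and 20.2 FPKM in D150L150. The Control libraries 1, 2 and 3 were at 8.47, 10.3 and 14.1 FPKM. So 13 of the 15 spacer libraries lay above every Control library, and the other 2, one of D15L100 and one of D15L200, fell just below Control 3. The 3 D150L150 libraries were all above 20 FPKM, as were 2 of D15L150 and none of the other groups.

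By group the mean level ran, from high to low, 21.4 ± 1.40 FPKM in D150L150, 19.0 ± 2.88 in D15L150, 16.2 ± 3.18 in D15L100, 15.8 ± 0.720 in D100L150, 15.6 ± 1.85 in D15L200 and 11.0 ± 2.86 in Control (SD, n = 3 each). Neighbours in this order overlapped among the spacer groups, and of the pairs of spacer groups that differ in one code only, D150L150 and D100L150 did not overlap. The lowest of the spacer groups, D15L200, overlapped with Control. The D150L150 minus D100L150 comparison had a log2 difference of 0.42 ± 0.17 (SE), with limma adjusted p = 0.953, so it did not pass. Against Control, the D150L150 difference passed at 0.93 ± 0.17 on the log2 scale (SE, limma adjusted p = 0.0195). This was 1 of 9 members called, where 2.42% of all genes were called, 2.03% higher and 0.398% lower. At an unadjusted p under 0.05 it was 4 of 9 members, against 20.4% of all genes.

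The other 4 groups did not pass against Control. The log2 difference of Amotl2 was 0.76 in D15L150 (limma adjusted p = 0.0581), 0.51 in D100L150 (0.113), 0.49 in D15L200 (0.157) and 0.53 in D15L100 (1.00). The D15L150 difference passed without D15L100 2 (adjusted p = 0.0329) or without D15L100 3 (0.0448), libraries that enter it through the shared spread. All 5 comparisons use the same 3 Control libraries. The limma test over all 6 groups at once gave an adjusted p of 0.129 for Amotl2.

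The Amotl2 call rested on the Control libraries. Without Control 1, the lowest library, the spacer minus Control difference was 0.49 on the log2 scale with limma adjusted p = 0.237, and without Control 2 it was 0.62 with adjusted p = 0.0594. Each of the other 16 libraries could be left out and the call held. In D150L150 against Control, the call ended without Control 1 (0.78, adjusted p = 0.115), without Control 2 (0.91, 0.0503), without D150L150 1 (0.94, 0.0970) and without D150L150 3 (0.97, 0.0607). It also ended where the fit held D150L150 and Control alone (adjusted p = 0.0928).

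Keratinocyte marker sums also reached higher values in spacer than in Control libraries, and the basal sums are given by group as well. The 8 basal keratinocyte genes summed to 3162 to 7469 FPKM in spacer libraries and 1283 to 3689 FPKM in Control, with 7 of 8 higher and 1 of 8 called. By group the basal sum was 6057 to 7395 FPKM in D150L150, 3162 to 7469 in D15L150, 3167 to 4302 in D15L100, 4971 to 6013 in D100L150 and 4404 to 6834 in D15L200, in falling order of Amotl2. The 8 wound-activated keratinocyte genes summed to 2778 to 19243 FPKM in spacer libraries and 2233 to 6758 FPKM in Control. A positive difference was found in 6 of 8, and 6 of 8 were called higher. The 8 suprabasal genes summed to 327 to 4117 FPKM in spacer libraries and 49.1 to 488 FPKM in Control, with 3 of 8 called higher. The wound-activated sum was highest in D100L150 (8770 to 19243 FPKM) and the suprabasal sum was 2884 to 4053 FPKM in D15L200, against 850 to 1971 FPKM in D150L150. The wound-activated list holds S100a8 and S100a9, which neutrophils express too, so its sum is not of keratinocytes alone. The 7 neutrophil genes, S100a8 and S100a9 among them, summed to 829 to 10383 FPKM in spacer libraries and 1078 to 6571 FPKM in Control. In D100L150 they summed to 2248 to 10383 FPKM. Of these 7 genes, 2 had a positive spacer minus Control difference, the median was -0.15 and 0 were called. Other cell type lists leaned one way as well. A positive spacer minus Control difference was found in 7 of 7 macrophage and 7 of 8 fibroblast genes, with 0 called. It was found in 0 of 10 blood endothelial, 0 of 10 smooth muscle and pericyte and 0 of 12 skeletal muscle genes. Of these, 1 smooth muscle and pericyte gene was called lower. No gene of these lists was at 0 in all libraries, and their part in the Amotl2 difference was not tested.

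**Figure D1:**
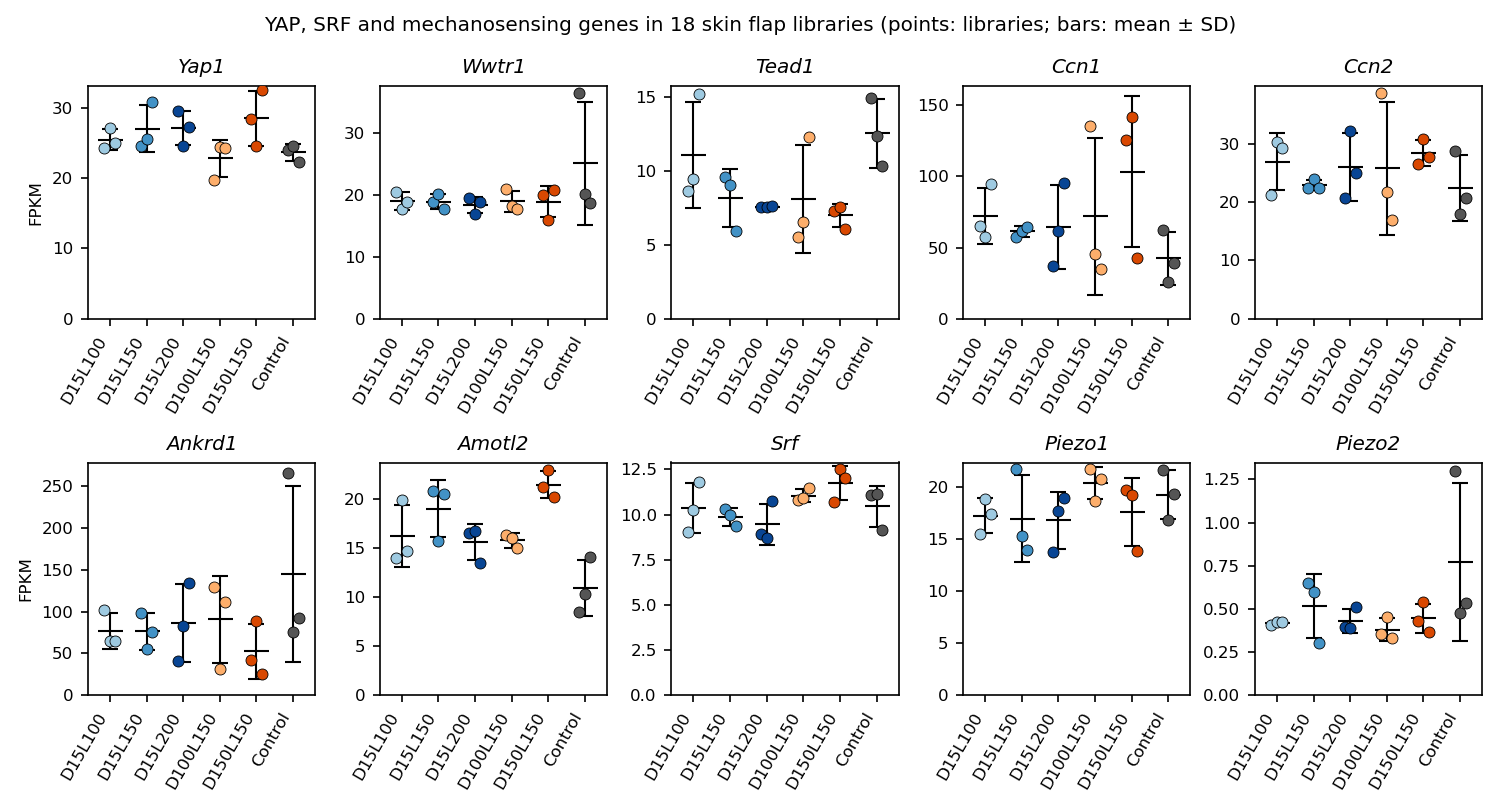
Levels of the 10 genes in FPKM (vertical axes, each starting at 0) in 5 spacer groups and, rightmost, Control; points are libraries, and bars are the mean ± SD of 3 libraries. Amotl2 is highest in D150L150 (20.2 to 22.9 FPKM) and lowest in Control (8.47 to 14.1 FPKM), while Wwtr1, Ankrd1 and Piezo2 each have a single high Control library.

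Yap1 itself was among the steadiest of the members. Its level was 19.8 to 32.4 FPKM over all 18 libraries, a 1.64-fold range, with a mean of 26.2 ± 3.16 FPKM in the spacer libraries (SD, n = 15) and 23.6 ± 1.22 FPKM in Control (SD, n = 3). The log2 difference was 0.13 ± 0.09 (SE, 95% interval -0.07 to 0.34, limma adjusted p = 0.428). D150L150 had the highest group mean, 28.5 ± 3.92 FPKM, and D100L150 the lowest, 22.8 ± 2.62 FPKM (SD, n = 3 each). The D150L150 libraries were at 28.4, 24.6 and 32.4 FPKM and the D100L150 libraries at 19.8, 24.4 and 24.3 FPKM. These groups did not overlap, which held for 2 of 9 members (Amotl2 and Yap1) and 5.61% of all genes. The Yap1 difference of 0.31 ± 0.12 on the log2 scale (SE) had a limma adjusted p of 0.953.

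Wwtr1, whose protein TAZ shares YAP's partners, was level across the 5 spacer groups, with group means of 18.5 to 19.0 FPKM. The 15 spacer libraries spanned 16.0 to 20.9 FPKM and averaged 18.9 ± 1.46 FPKM (SD, n = 15). Control libraries 1, 2 and 3 were at 36.6, 20.2 and 18.7 FPKM and averaged 25.1 ± 9.92 FPKM (SD, n = 3). Control 1 was thus 1.75 times the highest of the other 17 libraries, and Control 2 and 3 lay inside the spacer range. The log2 difference was -0.34 ± 0.15 (SE, limma adjusted p = 0.191), and without Control 1 it was -0.04 (adjusted p = 0.901).

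Tead1 encodes a TEAD factor, the DNA-binding part of the YAP and TAZ complex. It was at 8.61, 9.44 and 15.2 FPKM in D15L100, 9.57, 9.03 and 5.93 FPKM in D15L150, and 7.58, 7.53 and 7.66 FPKM in D15L200. It was at 5.56, 6.51 and 12.3 FPKM in D100L150, 7.32, 7.57 and 6.07 FPKM in D150L150, and 14.9, 12.3 and 10.3 FPKM in Control. All libraries of D15L150, D15L200 and D150L150 lay below all Control libraries, and D15L100 and D100L150 each had 1 high library that did not. In all, 13 of 15 spacer libraries were below every Control library.

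The mean of Tead1 was 8.39 ± 2.55 FPKM in spacer libraries (SD, n = 15) and 12.5 ± 2.32 FPKM in Control (SD, n = 3). The log2 difference of -0.56 ± 0.20 (SE, 95% interval -0.98 to -0.13) did not pass, with limma adjusted p = 0.123. It passed when the high library D100L150 3 was left out (-0.62, adjusted p = 0.0468), as did D100L150 against Control without that library (-0.93, adjusted p = 0.0491). By group the difference was -0.75 in D150L150 (limma adjusted p = 0.124), -0.64 in D15L200 (0.218), -0.63 in D100L150 (0.180), -0.57 in D15L150 (0.234) and -0.19 in D15L100 (1.00).

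Skeletal muscle marker sums were set beside the levels of Tead1. The 12 muscle genes summed to 19783 FPKM in D15L100 3 and 14859 FPKM in D100L150 3, the highest library for Tead1 of each of those groups. They summed to 2252 to 4481 FPKM in D150L150 and 8743 to 18992 FPKM in Control, where Tead1 was lowest and highest by group mean. The libraries lowest for Tead1, D100L150 1, D15L150 3 and D150L150 3, had muscle sums of 2632, 3945 and 3115 FPKM. D15L150 1 and 2 had muscle sums of 15071 and 16586 FPKM, with Tead1 below every Control library. Control 1 and 3 had muscle sums of 9615 and 8743 FPKM. D15L200 1 and 3, at 9983 and 3506 FPKM, had nearly equal Tead1. All 12 had a negative spacer minus Control difference, 0 of 12 passed, and no gene of the list was at 0 in all libraries. Their part in the level of Tead1 was not tested.

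Counting libraries rather than fitted differences, 2 of 9 members did not overlap with Control in D15L150 (Amotl2 higher, Tead1 lower), where 26.4% of all genes did not overlap. The same 2 members did not overlap in D150L150, where 26.4% of all genes did not. In D15L200 it was 1 of 9 (Tead1, lower), where 25.0% of all genes did not, and in D100L150 1 of 9 (Amotl2, higher), where 21.8% did not. In D15L100 all 9 overlapped with Control, where 6.07% of all genes did not. With the 15 spacer libraries as one set, no member was free of overlap, where 1.51% of all genes were. With 9 members, these shares cannot be told apart from those of all genes.

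**Figure D2:**
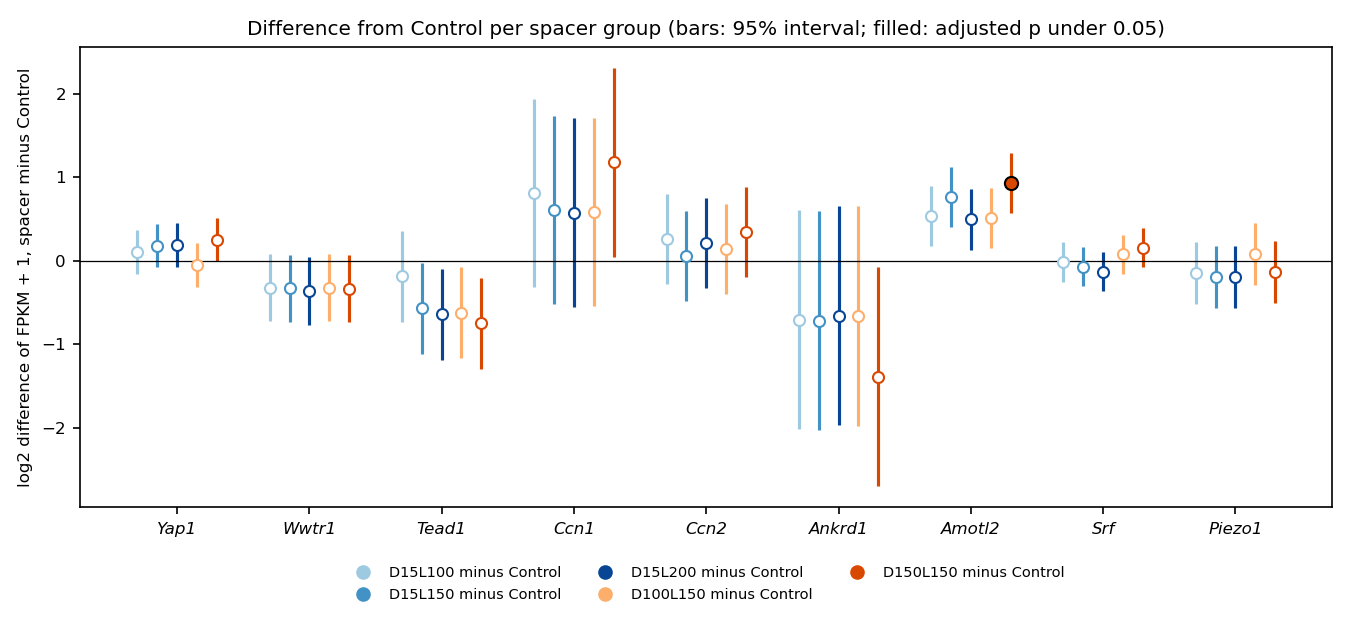
Log2 difference of FPKM + 1 between each spacer group and Control (vertical axis) for the 9 genes tested, with 95% intervals from limma; filled points passed at adjusted p under 0.05. The D150L150 difference of Amotl2 (0.93) is the one filled point, and the 5 differences of a gene share the same Control libraries.

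Ccn1 and Ccn2 encode secreted matrix proteins of the CCN family (CYR61 and CTGF) and are the most used readouts of YAP and TAZ. Ccn1 was at 65.0, 57.3 and 94.3 FPKM in D15L100, 57.3, 61.9 and 64.5 FPKM in D15L150, and 36.7, 61.2 and 94.9 FPKM in D15L200. It was at 135, 45.4 and 35.2 FPKM in D100L150, 125, 142 and 42.8 FPKM in D150L150, and 62.2, 25.7 and 39.2 FPKM in Control. The spread within groups was wide: D100L150 and D150L150 each held libraries near 40 FPKM and libraries at 125 FPKM or more, and every spacer group overlapped with Control.

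The mean of Ccn1 was 74.6 ± 35.4 FPKM in spacer libraries (SD, n = 15) and 42.4 ± 18.5 FPKM in Control (SD, n = 3). The log2 difference was 0.75 ± 0.41 (SE, 95% interval -0.12 to 1.63, limma adjusted p = 0.294). The largest group difference, 1.18 ± 0.53 in D150L150 (SE), had a limma adjusted p of 0.227. Without Control 1 the spacer minus Control difference was 1.07, with adjusted p = 0.442.

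Ccn2 was at 16.9 to 38.6 FPKM in the spacer libraries, with a median of 25.0 FPKM, and at 28.7, 17.9 and 20.7 FPKM in Control. The highest and the lowest library of all 18 were both of D100L150. D150L150, the group with the highest mean, was at 26.5, 30.8 and 27.7 FPKM, and it overlapped with Control 1. The log2 difference between spacer and Control libraries was 0.20 ± 0.19 (SE, 95% interval -0.22 to 0.62, limma adjusted p = 0.567).

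Ankrd1 encodes CARP, an ankyrin repeat protein of the nucleus and the sarcomere that is induced in injured skin and loaded muscle, and had the widest range of the 10 genes, 10.3-fold. It was at 102, 64.4 and 64.4 FPKM in D15L100, 98.3, 54.9 and 75.7 FPKM in D15L150, and 41.3, 83.2 and 134 FPKM in D15L200. It was at 129, 31.9 and 111 FPKM in D100L150, 42.8, 89.1 and 25.8 FPKM in D150L150, and 266, 75.6 and 92.4 FPKM in Control. Control 1 was 1.98 times the highest other library, D15L200 3, and Control 2 and 3 lay inside the spacer range.

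The mean of Ankrd1 was 76.6 ± 34.1 FPKM in spacer libraries (SD, n = 15) and 145 ± 105 FPKM in Control (SD, n = 3). The log2 difference was -0.83 ± 0.47 (SE, limma adjusted p = 0.319), and it was -0.28 without Control 1 (adjusted p = 0.869). The D150L150 difference was -1.39 ± 0.61 (SE, limma adjusted p = 0.219). Of the 4 readouts, Amotl2 rose, and Ccn1, Ccn2 and Ankrd1 had differences of 0.75, 0.20 and -0.83 on the log2 scale that did not pass.

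Srf, the transcription factor that follows actin, was the steadiest of the 10 genes. It was at 8.73 to 12.5 FPKM in spacer libraries and 11.1, 11.2 and 9.13 FPKM in Control, a 1.43-fold range over all libraries. Means were 10.5 ± 1.16 FPKM in spacer libraries (SD, n = 15) and 10.5 ± 1.15 FPKM in Control (SD, n = 3). The log2 difference was 0.00 ± 0.09 (SE, 95% interval -0.18 to 0.19, limma adjusted p = 0.988). D150L150 had the highest group mean, 11.7 ± 0.922 FPKM, and D15L200 the lowest, 9.47 ± 1.13 FPKM (SD, n = 3 each), and neither difference from Control passed (limma adjusted p = 0.447 for D150L150 and 0.562 for D15L200).

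The channel gene Piezo1 was at 13.7 to 21.7 FPKM in spacer libraries, with a median of 18.7 FPKM, and at 21.6, 16.8 and 19.3 FPKM in Control. D100L150 had the highest group mean, 20.4 ± 1.53 FPKM, and D15L200 the lowest, 16.8 ± 2.72 FPKM (SD, n = 3 each), and all groups overlapped with Control. The log2 difference between spacer and Control libraries was -0.12 ± 0.14 (SE, 95% interval -0.41 to 0.17, limma adjusted p = 0.636).

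Piezo2 was low in this tissue, from 0.304 to 0.651 FPKM in spacer libraries and at 1.30, 0.477 and 0.536 FPKM in Control. These levels stood on 100 to 465 fragments a library. Control 1 was 1.99 times the highest other library, and Control 2 and 3 lay inside the spacer range. Even so, 11 of 15 spacer libraries were below every Control library, among them all of D15L100 and D100L150. In a limma fit with no filter on low values, the log2 difference was -0.27 ± 0.11 (SE, adjusted p = 0.245), on a scale whose added 1 FPKM understates changes at such levels. Of 6 Merkel cell marker genes, which share a touch-sensing cell type with Piezo2, 5 were in the table and summed to 2.31 to 7.94 FPKM in spacer libraries and 4.50 to 10.7 FPKM in Control, where the sum in Control 1 was 10.7 FPKM. The defining factor Atoh1 has no value here, and the part of these cells in the level of Piezo2 was not tested.

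Because FPKM is per gene length, the 10 levels can be set in order. The medians over 18 libraries were 79.4 FPKM for Ankrd1, 61.6 for Ccn1, 24.6 for Yap1, 24.4 for Ccn2, 18.9 for Wwtr1, 18.8 for Piezo1, 16.2 for Amotl2, 10.7 for Srf, 8.14 for Tead1 and 0.430 for Piezo2. The ranges of neighbours in this order overlapped except those of Tead1 and Piezo2. The steady genes were Srf, Piezo1 and Yap1 (1.43, 1.58 and 1.64 times from lowest to highest library), and the variable ones Ankrd1 and Ccn1 (10.3 and 5.50 times).

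Single libraries set several of these values. Without Control 1, the spacer minus Control difference of Wwtr1 came close to 0 (-0.04), that of Ankrd1 was -0.28 ± 0.51 (SE), and that of Amotl2 was smaller and no longer passed. Over all 18 single omissions, Amotl2 ranged from 0.49 to 0.83 on the log2 scale, Tead1 from -0.68 to -0.43, Ccn1 from 0.45 to 1.07, and Ankrd1 from -1.18 to -0.28. Control 1 also had a neutrophil sum of 6571 FPKM, against 1078 and 3151 FPKM in Control 2 and 3. Its fibroblast sum was 3908 FPKM, against 9142 and 10523 FPKM. Spacer libraries D15L200 3 and D100L150 1 had neutrophil sums of 8994 and 10383 FPKM and fibroblast sums of 5674 and 3392 FPKM. These sums of Control 1, and its endothelial and keratinocyte sums given above, stand beside its Wwtr1, Ankrd1, Amotl2 and Piezo2 levels. The part of these cell types in those levels was not tested.

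**Figure D3:**
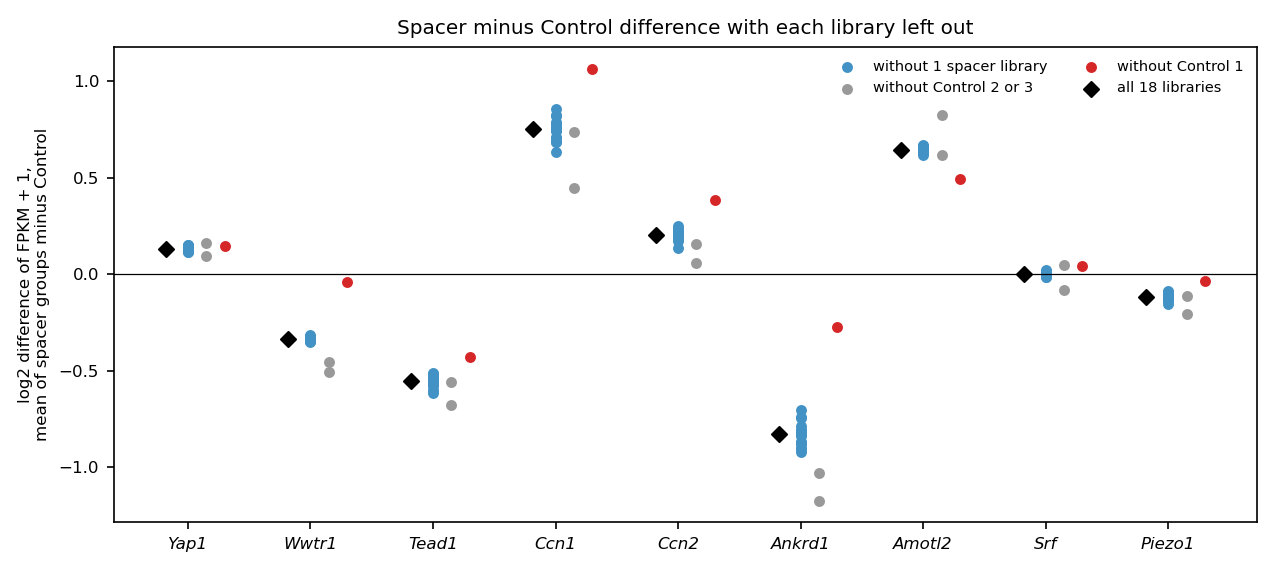
Log2 difference of FPKM + 1, mean of the 5 spacer groups minus Control (vertical axis), for 9 genes with all 18 libraries (diamonds) and with each library left out in turn (points). Leaving out Control 1 (red) moves Wwtr1 to -0.04, Ankrd1 to -0.28 and Amotl2 to 0.49.

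No member was called between spacer groups that share one of the 2 codes, in 6 comparisons in which no gene of the table was called by limma (0.0% of 13078). At unadjusted p under 0.05, 0 of 9 members were below it in D15L150 minus D15L100 (4.72% of all genes), D15L200 minus D15L100 (5.18%), D15L200 minus D15L150 (0.734%), D100L150 minus D15L150 (11.4%) and D150L150 minus D15L150 (4.95%). In D150L150 minus D100L150 it was 2 of 9 (Amotl2 and Yap1), against 2.2% of all genes. Groups also did not overlap for 2 of 9 members in D150L150 minus D15L150 (Ccn2 and Srf higher, 12.4% of all genes). It was 2 of 9 in D100L150 minus D15L150 (Srf higher and Yap1 lower, 17.1%) and 1 of 9 in D15L200 minus D15L100 (Tead1 lower, 12.4%). All 9 overlapped in D15L150 minus D15L100 (10.1% did not) and in D15L200 minus D15L150 (5.95%). The limma test over D15L100, D15L150 and D15L200 called 0 of 9 members and 0.0% of genes, with 0 of 9 under an unadjusted 0.05 (2.89% of genes). The test over D15L150, D100L150 and D150L150 likewise called 0 of 9 and 0.0% of genes, with 0 of 9 under an unadjusted 0.05 (5.74% of genes). The voom alternative on recovered fragments also called 0 members in each of these.

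Against Control, 0 of 9 members were called in D15L100 and D15L150 (0.0% of genes in each), in D15L200 (1.56%) and in D100L150 (1.38%). At unadjusted p under 0.05 these had 1, 2, 2 and 2 members, where 3.3%, 19.8%, 17.3% and 21.1% of all genes were below it, and voom called 0 in each. The test over all 6 groups called 0 of 9, where 0.0765% of genes were called, with 1 member (Amotl2) under an unadjusted 0.05 (13.4% of genes) and 0 called by voom.

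No gene of the wider Hippo and YAP lists was called between spacer and Control flaps. Of 17 Hippo kinases, adaptors and upstream regulators, 0 passed, and their median log2 difference was 0.12 against -0.04 for all genes. The smallest p-values in the list belonged to Wwc1 (KIBRA, an upstream activator of the kinases), at 0.78 with limma adjusted p = 0.0714, Stk4 (the kinase MST1), at 0.39 with 0.0860, and Mob1a (a kinase cofactor), at 0.28 with 0.144. In D150L150 the Wwc1 difference was 1.15, with limma adjusted p = 0.0538. Its 3 libraries there, at 4.12, 3.87 and 7.89 FPKM, lay above the Control libraries at 1.28, 2.27 and 1.69 FPKM.

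Of 10 partners and inhibitors of YAP and TAZ, 9 were tested and 0 passed, with a median of -0.05. Tead2 was at -0.59 (limma adjusted p = 0.153), Tead3 at 0.28 (0.209) and Vgll3, a cofactor of TEAD factors, at 0.26 (0.320), and Vgll1 did not pass the filter. Of 18 genes of a YAP and TAZ target signature, 17 were tested and 0 passed, with a median of 0.00 and 9 of 17 above 0. This signature shares Lats2 with the Hippo list and Ptpn14 with the list of partners and inhibitors. Nuak2, a kinase gene, was at 0.41 (limma adjusted p = 0.103), F3, the tissue factor gene, at 0.72 (0.147) and Arhgef17, an exchange factor gene, at -0.29 (0.153). The other CCN genes gave 3 tested and 0 passed: Ccn4 was at -0.42 (0.267), Ccn3 at 1.06 ± 0.81 (SE, 0.466) and Ccn5 at -0.40 (0.575).

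Of 9 immediate early genes that SRF drives, 2 rose in spacer flaps, where 2.84% of all genes were called higher. A positive difference was found in 8 of the 9, with a median of 0.59 against -0.04 for all genes. The list was chosen with earlier results of these data known, so these shares are a description and not independent support. Fosb, a partner of JUN in AP-1, was at 12.1, 6.47 and 9.56 FPKM in D15L100, 8.99, 10.8 and 11.4 FPKM in D15L150, and 3.63, 11.4 and 25.0 FPKM in D15L200. It was at 9.08, 3.62 and 0.945 FPKM in D100L150, 47.7, 25.8 and 13.0 FPKM in D150L150, and 2.78, 0.847 and 1.41 FPKM in Control. The groups were apart except for 1 D100L150 library, which was within the Control range.

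The log2 difference of Fosb was 2.09 ± 0.49 (SE, limma adjusted p = 0.0338) over all spacer groups and 3.36 ± 0.64 (SE, adjusted p = 0.0220) in D150L150. The D150L150 call ended without D150L150 1 (adjusted p = 0.111), Control 1 (0.102) or Control 2 (0.0591), with D150L150 and Control alone in the fit (0.0641) and with voom (0.0536). Egr3, a zinc finger factor, averaged 12.4 ± 3.96 FPKM in spacer libraries (SD, n = 15) and 5.10 ± 1.95 FPKM in Control (SD, n = 3), a log2 difference of 1.12 ± 0.27 (SE, limma adjusted p = 0.0358). Fos was at 1.43 ± 0.52 (SE) and did not pass (adjusted p = 0.130). Fosb did not pass without any 1 of the 3 Control libraries (adjusted p = 0.163, 0.107 and 0.0810 without Control 1, 2 and 3), without D15L150 2 or D15L200 2, and Egr3 did not pass in 7 of 18 omissions, among them Control 1 (0.84, adjusted p = 0.335). Over all spacers, the calls of both genes also ended with no filter on low values (adjusted p = 0.0693 for Fosb and 0.0716 for Egr3) and with voom (0.103 for Fosb and 0.0558 for Egr3).

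No cytoskeletal target of SRF was called. Of 24 actin, myosin, tropomyosin and other cytoskeletal target genes, 0 passed, 9 had a positive difference, and the median was -0.16. Fhl2, a LIM protein of actin fibres, was at 0.36 (limma adjusted p = 0.137), Lima1, an actin bundler, at 0.35 (0.148) and Tagln, transgelin of smooth muscle, at -0.59 (0.178). Smooth muscle and pericyte markers summed to 430 to 1347 FPKM in spacer libraries and 1023 to 1833 FPKM in Control, with 0 of 10 positive and 1 of 10 called lower, and their part in these values was not tested. Of 6 SRF cofactors, 5 were tested and 0 passed: Mrtfb was at -0.25 (0.111), Mrtfa at 0.21 (0.397) and Elk3 at -0.27 (0.505).

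Of 16 other channel genes linked to mechanical gating, 8 were above the filter and 0 passed, with a median of 0.02. The smallest p-values were those of Pkd1 at -0.16 (limma adjusted p = 0.321), Pkd2 at -0.18 (0.375) and Tmem63a at 0.18 (0.412). In the comparisons of single spacer groups with Control, Fosb in D150L150 was the 1 gene of these lists that was called, and in those between spacer groups none was called.

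**Figure D4:**
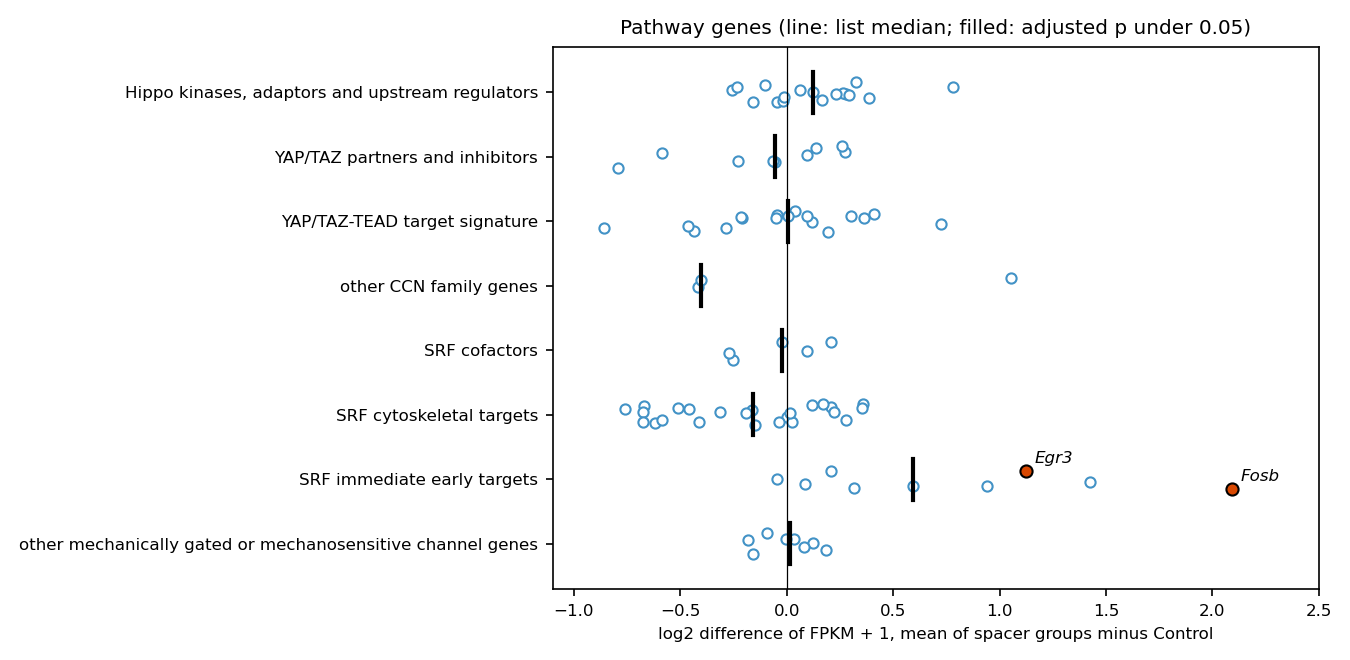
Log2 difference of FPKM + 1, mean of the 5 spacer groups minus Control (horizontal axis), for the tested genes of 8 lists (rows); lines are list medians and filled points passed at adjusted p under 0.05. The filled points are Fosb (2.09) and Egr3 (1.12), both in the immediate early list, whose median is 0.59.

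Each member was set beside the 3 genes of the tested table whose log2 levels ran most nearly in parallel with it over the 18 libraries, with Pearson's r as the measure and no test. Ccn1 ran with Dusp1, a phosphatase gene induced early by stress (r = 0.91), Rgs1 (0.88) and Fos (0.87), and the values without Control 1 were 0.92, 0.88 and 0.87. Tead1 ran with Slco5a1 (0.97), Chchd10 (0.95) and Filip1 (0.94), and Piezo1 with Fes (0.94), Tnfaip2 (0.93) and Ifnar1 (0.92). Ankrd1 ran with Samd8 (0.89), Rrad (0.88) and Tgm2 (0.86), or 0.85, 0.82 and 0.81 without Control 1. Yap1 ran with Zfp35, Papss1 and Cdca7l (0.87 each).

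The likeness of Wwtr1 rested on 1 library. Its nearest genes were Arxes2 (0.91), Ppfibp1 (0.89) and Tspan12 (0.88), and without Control 1 the values were 0.60, 0.46 and 0.46. Amotl2 was nearest to Mon1b (0.89), Aqr (0.87) and Cept1 (0.87), with 0.82, 0.79 and 0.78 without Control 1. Ccn2 (Rnf19a, 0.79, Fbxw11, 0.78, and Vamp4, 0.74) and Srf (Larp4b, 0.76, Ddias, 0.75, and Gm10157, 0.72) had lower values. All libraries share the tissue and its mix of cell types, and with 13078 genes the nearest 3 are high by selection.

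**Figure D5:**
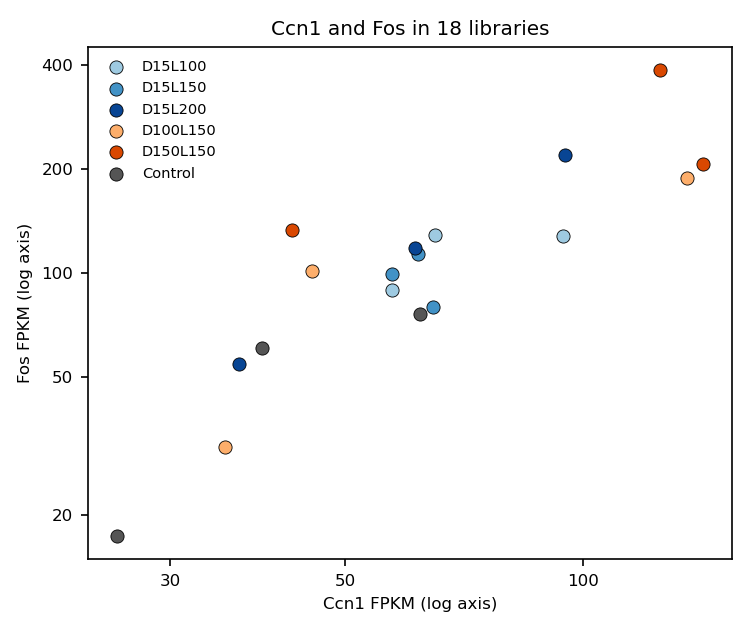
Fos level against Ccn1 level in 18 libraries (FPKM, log axes), coloured by group. The 3 libraries with Ccn1 at 125 to 142 FPKM have Fos at 189 to 386 FPKM, and the lowest library for both genes is Control 2 (25.7 FPKM of Ccn1 and 17.4 FPKM of Fos).

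Within groups, the 9 genes were compared in 36 pairs by their deviations from the group means over 18 libraries, with exact permutation within groups and two-sided p-values adjusted over the 36 pairs. None passed, with a smallest adjusted p of 0.155 for Pearson's r and 0.158 for Spearman's rank coefficient, while 8 pairs were under an unadjusted 0.05. The smallest p was that of Tead1 and Srf, with r = 0.57 and a Spearman coefficient of 0.62 (exact permutation p = 0.00510 and 0.00508, adjusted 0.155 and 0.158). The 3 pairs given next were chosen after their values were seen, and they are not the 3 with the smallest p. Ccn1 and Ccn2 had r = 0.69 and a Spearman coefficient of 0.60 (exact permutation p = 0.0223 and 0.0437, adjusted 0.190 and 0.262), and r = 0.67 without the 2 libraries farthest from the median of Ccn1. Ankrd1 and Piezo1 had r = 0.64 and a Spearman coefficient of 0.67 (exact permutation p = 0.00862 and 0.0108, adjusted 0.155 and 0.158), and r = 0.63 without 2 libraries. Yap1 and Ccn1 had r = -0.64 and a Spearman coefficient of -0.58 (exact permutation p = 0.0329 and 0.0598, adjusted 0.190 and 0.307), and r = -0.48 without 2 libraries.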

How the data were processed

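RNA-seq of 18 skin flap libraries was analysed from the FPKM values the authors deposited, 1 column per library. The build was mm10, and DESeq2, fastp, HTSeq, HISAT2 and R 3.2.0 were used, per the submitters' processing notes, which give no role or order; the sources used here give no annotation, strand setting or filters. Unstranded counting would mix antisense reads into a gene's level. The members and lists were chosen with earlier results of these data known. Genes with at least 1 FPKM in at least 3 libraries (13078 of 27743) were tested in limma 3.58.1 (R 4.3.3) on log2(FPKM + 1), with a mean per group over all 18 libraries, a trend and robust variance, and Benjamini-Hochberg adjustment within each comparison; calls had adjusted p under 0.05. "Spacers" is the equal mean of the 5 spacer groups. The low values of each gene were whole multiples of 1 step, so fragments could be recovered: all 27743 genes gave whole numbers within 0.001, and the highest library had 1.24 times the fragments of the lowest. Fragments are PCR copies without molecular identifiers, and depth covers counting error only. No 2 libraries of a group agreed within counting noise. The genes named are all 10 members, the called genes of each list or else its 3 with the smallest p, and 3 nearest genes per member. One list is not reported here. Fits were checked on simulated data. Alternatives were another pseudocount (0.1), no filter, TPM and quantile scaling, plain variance, only the compared groups, a replicate block, each library left out, and voom on recovered fragments. Promoter windows came from RefSeq (GRCm38.p6) and gene positions from GENCODE on GRCm38.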

Additional observations from a re-analysis of the deposited data

How the results depend on the processing

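The spacer minus Control difference of Amotl2 passed under all 7 alternatives other than omissions, from 0.63 to 0.72 on the log2 scale with limma adjusted p from 0.0159 to 0.0439. The number of members called was 0 to 2 when each library was left out in turn, against 1, and 0 to 1 in D15L150, D100L150 and D150L150 minus Control, against 0, 0 and 1. In D15L150 minus Control it was 1 under quantile scaling (Amotl2, adjusted p = 0.0494), and in D150L150 minus Control it was 0 where the fit held the 2 compared groups alone (Amotl2, adjusted p = 0.0928). The near-zero Srf difference had the other sign under quantile scaling (-0.0028) and in 7 omissions, and over all 18 omissions it ran from -0.0833 to 0.0483. Among all genes, calls over spacers minus Control numbered 227 with no filter, 256 with the replicate block and 285 with voom, against 466. With those and with the compared groups alone, they numbered 47 to 183 in D150L150 (against 317), 0 to 90 in D100L150 (181) and 0 to 52 in D15L200 (204), and D15L150 had 0 to 142 over all these settings (0). Fosb and Egr3 did not pass over all spacers with no filter, the replicate block or voom (adjusted p = 0.0558 to 0.103), and in D150L150 Fosb did not pass with only the compared groups or voom. Voom was chosen after seeing the data. The 2 planned edgeR fits were not run, since the values are FPKM. The cause of these changes was not tested, nor was the part of fewer libraries or more genes in the fit.

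Replicate numbers did not pair the libraries: over 45 same-numbered pairs the correlation of deviations ran from -0.66 to 0.53 and was over 0.1 in 18. With a replicate block, 1 member was called over all spacers (Amotl2, adjusted p = 0.0405) and 1 in D150L150 minus Control (adjusted p = 0.0444). Piezo2 stood on at most 465 fragments, and 3 Control libraries limit every comparison with Control.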
